A study of Mus musculus with 12 samples.

Results

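The activator protein 1 (AP-1) family examined here comprises 7 genes, Fos, Fosb, Fosl1 and Fosl2 of the Fos branch and Jun, Junb and Jund of the Jun branch. They were chosen by name, as all the Fos and Jun genes among the 24490 genes with expression values, and each was present. RNA was sequenced from the dorsal root ganglia (DRG) of adult C57Bl/6 mice, taken from all levels of the spine, in 3 preparations with 4 samples each. Intact DRG were frozen whole, with 1 mouse per sample. Unsorted DRG were dissociated with dispase, collagenase and DNAse, triturated, filtered and frozen, with 2 mice pooled per sample. MACS-sorted DRG were dissociated in the same way, labelled in the cold with a biotinylated antibody cocktail against non-neuronal cells and passed through a magnetic column that retains the labelled cells, with 8 mice pooled per sample. Sorting thus came after dissociation, and no sample was sorted without it. The values are FPKM (mapped fragments normalised for transcript length and library size), which compare genes per length.

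The preparations were checked before the family was described. Pan-neuronal markers summed to between 3384 and 4557 FPKM in every sample. In MACS-sorted against unsorted DRG, 9 of 11 nociceptor markers passed the criteria for a higher level that are given with the comparisons, while 5 of 6 satellite glia, 6 of 7 Schwann cell, 6 of 7 fibroblast and 5 of 6 large-diameter neuron markers passed those for a lower one. The large-diameter neuron markers summed to 766 to 938 FPKM in unsorted and 81.2 to 145 FPKM in MACS-sorted samples. Sorting thus went with less RNA of a class of neurons as well as of the non-neuronal cells just named. Vascular lists did not follow. None of 7 endothelial markers was called, and their sums overlapped, at 59.2 to 74.7 FPKM in unsorted and 27.3 to 90.7 FPKM in MACS-sorted samples. Of 6 pericyte and smooth muscle markers, 1 was called higher and 3 lower. Red blood cell genes held 0.554%, 0.795%, 4.11% and 5.17% of the summed FPKM in MACS-sorted replicates 1 to 4 and at most 0.213% in other samples. Xist, the X-inactivation RNA of female cells, lay between 16.1 and 24.4 FPKM in the intact samples and at or below 0.337 in all others. Conversely, the Y-linked gene Ddx3y was at most 0.0227 FPKM in intact and 9.29 to 15.6 in the other samples, although the study's methods give male mice throughout. Preparation, sex-linked expression and whatever else sets the intact mice apart therefore cannot be told apart in any comparison with intact DRG. Intact replicate 1 stood apart, at a root mean square difference of 0.705 to 0.723 on the log2 scale from the other intact samples, which lay 0.352 to 0.378 from each other. It held more fibroblast (1136 against 603 to 690 FPKM) and macrophage marker RNA (129 against 56.8 to 62.0 FPKM) and the muscle gene Mylpf at 699.7 FPKM against 3.56 to 13.1. Unsorted replicates 1 and 2 were the closest pair of samples in any group, with a root mean square difference of 0.335 on the log2 scale, and results are given below also with this pair averaged into 1 sample. These 3 genes were picked after their values were seen.

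AP-1 proteins are basic leucine zipper (bZIP) transcription factors that bind DNA as dimers. Jun proteins can pair with each other or with Fos proteins, whereas Fos proteins mostly pair with Jun proteins. Fos, Fosb, Jun and Junb are immediate early genes, transcribed within minutes of a stimulus without new protein synthesis, and Fos is widely used as a marker of recently active neurons. In sensory neurons Jun is best known for its rise after axon injury. Jund and Fosl2 are usually less responsive, and Jund is abundant in resting cells.

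The stretches directly upstream of the start sites are shown for the 4 members that rose most after dissociation. They are the 150 bases before the start in the RefSeq promoter table of GRCm38.p6, the mm10 assembly, read 5′ to 3′ on the strand of the gene. Capitals mark the letters TGACG, which open a cyclic AMP response element, the TATA box letters TATAAA and the letters TGACNTCA, in which N is any base.
Fos, chr12:85473740-85473889, plus strand: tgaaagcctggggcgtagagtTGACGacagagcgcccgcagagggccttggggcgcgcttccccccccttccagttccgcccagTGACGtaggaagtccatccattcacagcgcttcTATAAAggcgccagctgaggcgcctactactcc
Fosb, chr7:19310046-19310195, minus strand: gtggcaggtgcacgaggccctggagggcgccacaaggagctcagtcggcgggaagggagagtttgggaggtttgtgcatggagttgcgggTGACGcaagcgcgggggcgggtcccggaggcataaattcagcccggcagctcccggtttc
Junb, chr8:84978749-84978898, minus strand: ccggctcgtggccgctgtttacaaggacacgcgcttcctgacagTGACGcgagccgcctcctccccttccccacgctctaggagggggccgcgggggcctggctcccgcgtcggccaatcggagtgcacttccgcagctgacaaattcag
Jun, chr4:95052223-95052372, minus strand: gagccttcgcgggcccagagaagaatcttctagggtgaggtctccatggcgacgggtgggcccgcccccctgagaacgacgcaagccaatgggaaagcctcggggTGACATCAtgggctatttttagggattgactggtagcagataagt

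TGACG was found in Fos, 129 and 66 bases upstream of the start, in Fosb at 60 bases and in Junb at 106 bases. Jun held TGACATCA at 45 bases, and Fos held TATAAA at 33 bases. Both strands were searched, and TGACG can lie inside TGACNTCA where N is G, which was not the case in these windows. Of 32851 mouse promoter windows of the same length, 13.3% hold TGACG, 5.70% TGACNTCA and 7.57% TATAAA. The windows of Jund and Fosl2 held none of these motifs. No window held TGANTCA, an AP-1 binding motif (4.24% of promoters), or the CArG box bound by serum response factor (0.916%). Bases more than 150 upstream of the start were not searched, so these absences hold for the windows only and not for the whole promoters. The table matched 6 of the 7 members, all but Fosl1.

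In intact DRG, Jun-branch transcripts prevailed. Jund, on chromosome 8 of mm10 from 70697739 to 70700616, was at 36.2, 26.4, 27.2 and 32.1 FPKM in intact replicates 1 to 4, a mean of 30.5 ± 4.55 (SD, n = 4). Its annotated transcript is a single exon of 1668 bases, shorter than this span of 2878 bases. Jun, on chromosome 4 from 95049036 to 95052222 and also of 1 exon, was at 24.5, 26.9, 27.3 and 24.9 FPKM. The ranges of these 2 genes overlapped, so their order was not resolved. Junb, a single-exon gene on chromosome 8 from 84976909 to 84978748, followed at 8.76, 5.45, 6.47 and 8.33 FPKM, below Jun and Jund in every sample. Fos, on chromosome 12 from 85473901 to 85477270 with 4 exons, was at 4.19, 2.07, 2.67 and 3.43 FPKM. Its range overlapped that of Fosl2, on chromosome 5 from 32136472 to 32157839, which was at 2.43, 3.16, 2.83 and 2.39 FPKM. Fosb, on chromosome 7 from 19302696 to 19310045, was lowest of the 6 genes, at 0.334, 0.296, 0.365 and 0.355 FPKM.

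Fosl1, on chromosome 19 from 5447698 to 5455938, was listed at 0 in all 12 samples, as were 25.5% of the genes in the table. It was therefore in no test. Its locus overlaps the 3′ part of Ccdc85b on the opposite strand, which lay between 8.21 and 15.6 FPKM. The annotation also places antisense RNAs over Jun (Junos) and Jund (Gm11175), so reads of these partners could be counted with the genes. The libraries were made with a directional kit, which keeps the strand, while the use of strand in the alignment and in Cufflinks is not given in the sources used here.

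Dissociation without sorting was first compared with intact DRG, which asks whether AP-1 expression differed after dissociation. A gene was called when its two-sided limma p-value, adjusted by the Benjamini-Hochberg method over all genes tested, was under 0.05, the log2 ratio of group means was beyond 0.5 and the higher group's mean was above 5 FPKM. Fosb, Fos, Junb and Jun were called higher in unsorted DRG, 4 of the 6 members tested, against 4.29% of the 12392 genes tested. No member was called lower, against 2.76% of genes, and none was lower at an unadjusted p under 0.05 either. Ordered by log2-fold change among all genes tested, Fosb was 5th, Fos 7th, Junb 22nd and Jun 32nd. Y-linked genes, which follow the sex-linked difference of the intact samples, were among those ranked higher. Ddx3y (6.99) and Eif2s3y (6.85) stood above Fosb, and Uty (5.36) above Fos.

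Fos was at 55.6, 57.7, 191 and 314 FPKM in unsorted replicates 1 to 4, a mean of 155 ± 124 against 3.09 ± 0.919 in intact DRG (SD, n = 4 each). The lowest unsorted sample lay 18.0-fold and the highest 102-fold above the intact mean, and the groups did not overlap. On the log2(FPKM + 0.1) scale, used for all log2-fold changes given here with their standard error (SE), the difference was 5.25 (SE 0.54, limma adjusted p = 0.00125). Fosb, whose protein exists also as the truncated and long-lived form known as delta-FosB, was at 8.93, 8.32, 35.8 and 71.1 FPKM in the unsorted samples. With intact values all below 0.366 FPKM, its mean was 91.9-fold higher. Genes tested had to average 1 FPKM over the samples compared, which Fosb reached only through its unsorted values. Its place in the counts and ranks above rests on that. The log2-fold change was 5.59 (SE 0.63, limma adjusted p = 0.0016). Its size depended on the processing, from 4.06 to 6.03 under the other settings run.

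Junb, a Jun protein with weaker transactivation than Jun on its own, was at 28.9, 29.3, 68.3 and 90.1 FPKM in the unsorted samples. All 4 lay above the highest intact sample, and the log2-fold change was 2.73 (SE 0.37, limma adjusted p = 0.00289). Jun was at 58.1, 60.8, 121 and 144 FPKM, again without overlap. Starting from a higher level in intact DRG, it rose by a smaller ratio, with a log2-fold change of 1.77 (SE 0.28, limma adjusted p = 0.00477). The increase in mean FPKM was nevertheless larger for Jun, at 69.9, than for Junb, at 46.9, or Fosb, at 30.7.

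Jund and Fosl2 were the members with small differences. Jund was at 38.7, 37.8, 46.0 and 48.2 FPKM in unsorted DRG, all above the intact samples. Its log2-fold change of 0.49 (SE 0.12) had an adjusted p of 0.0243 from limma, but the log2 ratio of its means, 0.486, was short of 0.5, so it was not called. By adjusted p alone, 5 members were higher, against 14.8% of all genes tested. Fosl2 was at 2.61, 2.43, 3.75 and 4.56 FPKM in unsorted samples, which overlapped the intact ones, with a log2-fold change of 0.26 (SE 0.20, limma adjusted p = 0.374). In exact two-sided permutation tests of the FPKM values, the 5 members without overlap reached p = 0.02857, the smallest that 4 samples against 4 allow, and Fosl2 gave p = 0.3143. Of all genes tested, 20.8% lay higher in unsorted DRG without overlap. In bulk samples such as these, a change in the cells present and a change in RNA per cell cannot be told apart. Cell type markers moved in the same comparison, with 6 of 7 fibroblast and 4 of 8 macrophage markers called lower and 4 of 7 endothelial, 4 of 6 large-diameter neuron and 2 of 6 satellite glia markers called higher in unsorted DRG. The part of these cells in the AP-1 difference was not tested.

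**Figure D1:**
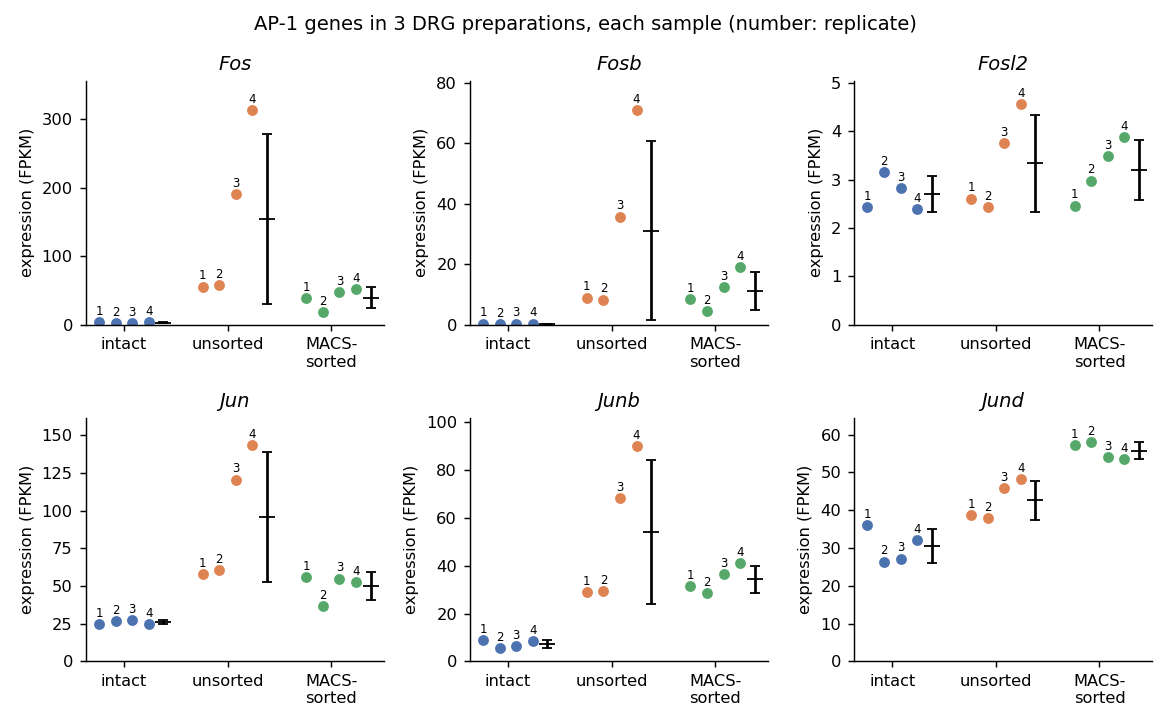
Expression in FPKM (y axes from 0, with their own scale per gene) of the 6 detected AP-1 genes in 4 intact, 4 unsorted and 4 MACS-sorted samples; points are samples with their replicate number, and black bars give the mean and SD. Unsorted replicates 3 and 4 are the highest samples for Fos, Fosb, Jun and Junb, whereas Jund is highest in the MACS-sorted samples, from 53.6 to 58.1 FPKM.

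The 4 unsorted samples did not share one level of AP-1 expression. Replicate 4 was highest and replicate 3 second for each of the 6 detected members, an order held by 5.85% of the 11966 genes that averaged 1 FPKM or more over all samples and over the unsorted ones. The highest unsorted sample exceeded the lowest 8.54-fold for Fosb, 5.65-fold for Fos, 3.12-fold for Junb, 2.47-fold for Jun, 1.88-fold for Fosl2 and 1.27-fold for Jund. The median gene spanned 1.18-fold, and 2.49% of genes exceeded 2-fold. By this span Fosb was the 7th and Fos the 18th widest gene.

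Other transcripts separated the same samples. Ptgds, a prostaglandin D synthase gene expressed in the meninges, was at 113 and 116 FPKM in unsorted replicates 1 and 2 and at 4.51 and 6.33 in replicates 3 and 4. Over the whole list of 7 fibroblast markers, the summed FPKM was 408, 392, 187 and 252 in replicates 1 to 4. The 8 macrophage markers summed to 39.5, 40.1, 19.6 and 24.1 FPKM, and the red blood cell list to 369, 400, 112 and 172. Replicates 1 and 2 were thus richer in these transcripts and lower in AP-1, while pan-neuronal markers differed little, between 4035 and 4345 FPKM. Satellite glia (574, 555, 429 and 476 FPKM) and endothelial markers (74.7, 72.9, 59.2 and 64.3) were likewise higher in replicates 1 and 2. So were pericyte and smooth muscle (88.3, 85.7, 66.7 and 69.0 FPKM) and neutrophil markers (92.7, 96.8, 40.3 and 43.8). By contrast, large-diameter neuron markers were higher in the second pair (781, 766, 938 and 865 FPKM in replicates 1 to 4). Schwann cell markers did not separate the pairs (3023, 3049, 2240 and 3473 FPKM). The part of cell make-up in the AP-1 difference between these samples was not tested. Even the lower pair lay above all intact samples for Fos, Fosb, Jun, Junb and Jund. With replicates 1 and 2 averaged into 1 sample, the same 4 genes were called, and Jund as well.

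MACS-sorted DRG were then compared with unsorted DRG. Besides the removal of labelled cells, they differ by washes, incubations in the cold, passage through the column and pools of 8 against 2 mice. These differences cannot be told apart. Fos and Jun were called lower in MACS-sorted samples, 2 of 6 members against 12.5% of the 12038 genes tested, and none was called higher, against 8.15%. By adjusted p alone 1 member, Jund, was higher, against 18.8% of genes. In MACS-sorted replicates 1 to 4, Fos stood at 39.2, 18.7, 47.8 and 52.5 FPKM, on average 39.5 ± 14.9 (SD, n = 4), and the unsorted mean was 3.91-fold higher. The highest MACS-sorted sample was just under the lowest unsorted one, at 55.6 FPKM. Its log2-fold change was -1.67 (SE 0.57, limma adjusted p = 0.0354). Jun was at 56.1, 36.6, 54.9 and 52.4 FPKM, likewise just under its lowest unsorted value of 58.1. The log2-fold change was -0.84 (SE 0.29, limma adjusted p = 0.0401).

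Both calls depended on single samples. Without any one of MACS-sorted replicates 1, 2 and 3 or unsorted replicates 3 and 4, the adjusted p of Fos lay between 0.0521 and 0.0990. For Jun, leaving out any one of the MACS-sorted samples or unsorted replicate 3 or 4 gave adjusted p between 0.0548 and 0.1116. The direction was the same in each case. The part of the glia, fibroblasts and large-diameter neurons whose markers were lower in MACS-sorted samples was not tested.

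Fosb was at 8.39, 4.49, 12.5 and 19.1 FPKM after sorting, overlapping the lower unsorted pair, with a log2-fold change of -1.09 (SE 0.70, limma adjusted p = 0.231). Junb was at 31.4, 28.5, 36.4 and 41.1 FPKM, with a log2-fold change of -0.49 (SE 0.35, limma adjusted p = 0.283). For these 2 genes the MACS-sorted samples lay beside unsorted replicates 1 and 2 and below replicates 3 and 4. Fosl2 was at 2.47, 2.98, 3.49 and 3.88 FPKM, a log2-fold change of -0.03 (SE 0.22, limma adjusted p = 0.922) whose sign turned under other scalings of the samples. Jund differed from the other members. It was at 57.2, 58.1, 54.0 and 53.6 FPKM in MACS-sorted samples, all above the highest unsorted sample at 48.2, with a log2-fold change of 0.39 (SE 0.09, limma adjusted p = 0.00524). Of all genes, 18.4% lay higher and 27.8% lower in MACS-sorted than in unsorted DRG without overlap.

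Against intact DRG, MACS-sorted samples had higher FPKM of 5 members. Fosb, Fos, Junb, Jun and Jund were called higher, 5 of 6 against 7.54% of the 12234 genes tested, and none was called lower, against 10.7% of genes, or at an unadjusted p under 0.05. For these 5 genes the groups did not overlap, as was the case for 15.6% of genes that were higher and 21.9% that were lower. The log2-fold changes were 4.50 for Fosb (SE 0.38, limma adjusted p = 2.8e-05) and 3.58 for Fos (SE 0.33, limma adjusted p = 4.1e-05). In means of FPKM, Fosb was 33.0-fold and Fos 12.8-fold higher than in intact DRG. Fosb entered this test only through its MACS-sorted values, and its log2-fold change was 3.03 to 4.99 under the other settings run. Junb was 4.74-fold, Jun 1.93-fold and Jund 1.83-fold higher, with log2-fold changes of 2.24, 0.93 and 0.88 and adjusted p of 1.9e-05, 7.0e-04 and 2.9e-04 from limma. Fosl2 again gave no call, with a log2-fold change of 0.23 (SE 0.17, limma adjusted p = 0.351). The comparisons share their samples pairwise, since each preparation enters 2 of them, and their values are therefore not independent of each other. Against intact DRG, 7 of 7 Schwann cell, 4 of 6 satellite glia and 6 of 7 fibroblast markers were called lower, and 6 of 11 nociceptor markers higher. Here too, the cells present, RNA per cell and the sex-linked difference of the intact samples cannot be told apart.

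**Figure D2:**
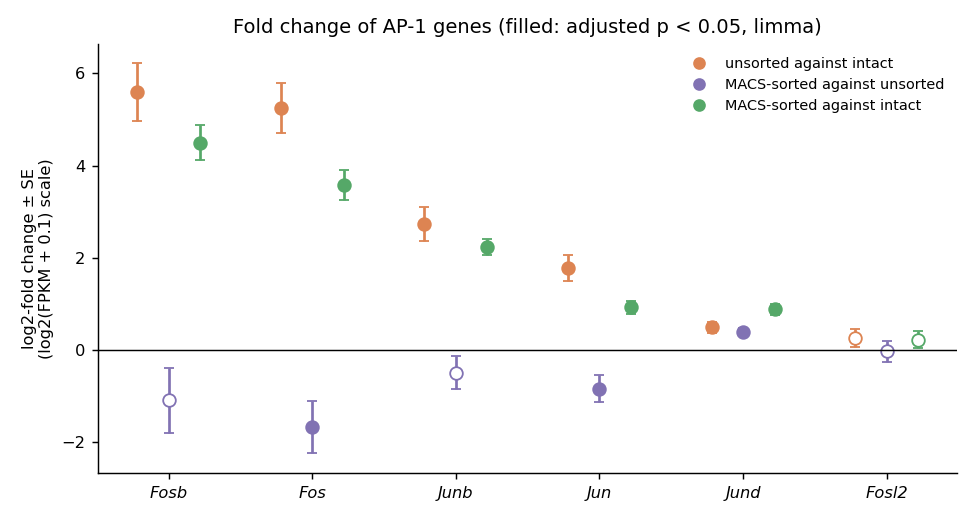
Log2-fold change on the log2(FPKM + 0.1) scale (y axis) of each AP-1 gene (x axis) in the 3 comparisons, with bars of 1 standard error from limma; filled points have an adjusted p under 0.05. Fosb and Fos stand highest in both comparisons with intact DRG, at 5.59 and 5.25 for unsorted and 4.50 and 3.58 for MACS-sorted samples, while Jund is the 1 filled point above 0 in MACS-sorted against unsorted DRG.

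MACS-sorted replicate 2 held the lowest value of its group for Fos, Fosb, Jun and Junb, and the highest for Jund. In that sample Fos was 6.05-fold and Fosb 13.3-fold above the intact mean, against 12.7- to 17.0-fold and 24.8- to 56.7-fold in the other sorted samples. The same sample was lowest of its group in summed endothelial (27.3 FPKM), satellite glia (84.6), Schwann cell (544) and large-diameter neuron markers (81.2), and highest in pan-neuronal (4557) and nociceptor markers (4300.5). Other lists went differently. It was above replicate 1 in fibroblast (16.2 against 14.1 FPKM) and pericyte and smooth muscle markers (90.7 against 55.9). It was above replicate 3 in macrophage (1.29 against 0.917) and neutrophil markers (5.74 against 1.78). The red blood cell share, which separated replicates 3 and 4 from 1 and 2, did not follow this order. The part of other cells in these values was not tested.

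The make-up of the family shifted with its sum. All 7 genes together amounted to 64.2 to 76.4 FPKM in intact samples, to 193, 196, 465 and 672 FPKM in unsorted replicates 1 to 4 and to 149 to 223 FPKM in MACS-sorted samples. The Fos branch held 8.60% to 9.10% of this sum in intact DRG, a narrow range. It held 34.8%, 34.9%, 49.5% and 58.0% in unsorted replicates 1 to 4 and 25.7%, 17.5%, 30.5% and 33.9% in MACS-sorted replicates 1 to 4, so that the 3 preparations did not overlap. Within that branch Fosl2 went from 3.18% to 4.92% of the family sum in intact samples to between 0.678% and 2.00% in all others, although its own level differed little. Jund went from 40.7% to 47.3% of the sum in intact DRG to 20.1%, 19.3%, 9.88% and 7.17% in unsorted DRG. After sorting, its share was 24.1% to 38.9%.

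The leading gene also changed. Jund or Jun led in every intact sample. Jun led in unsorted replicates 1 and 2, followed closely by Fos, and Fos led in replicates 3 and 4, where it ranked 202nd and 90th among all genes by FPKM against ranks between 9007 and 10895 in intact DRG. In MACS-sorted samples Jund led in replicates 1, 2 and 4 and Jun in replicate 3, and the lead over the next gene was wide in replicate 2 alone, where Jund was at 58.1 and Jun at 36.6 FPKM. Fosl2 was the lowest detected member of every dissociated sample. The ratio of Fos to Fosb spanned 6.98 to 12.5 among intact, 4.42 to 6.93 among unsorted and 2.74 to 4.67 among MACS-sorted samples.

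**Figure D3:**
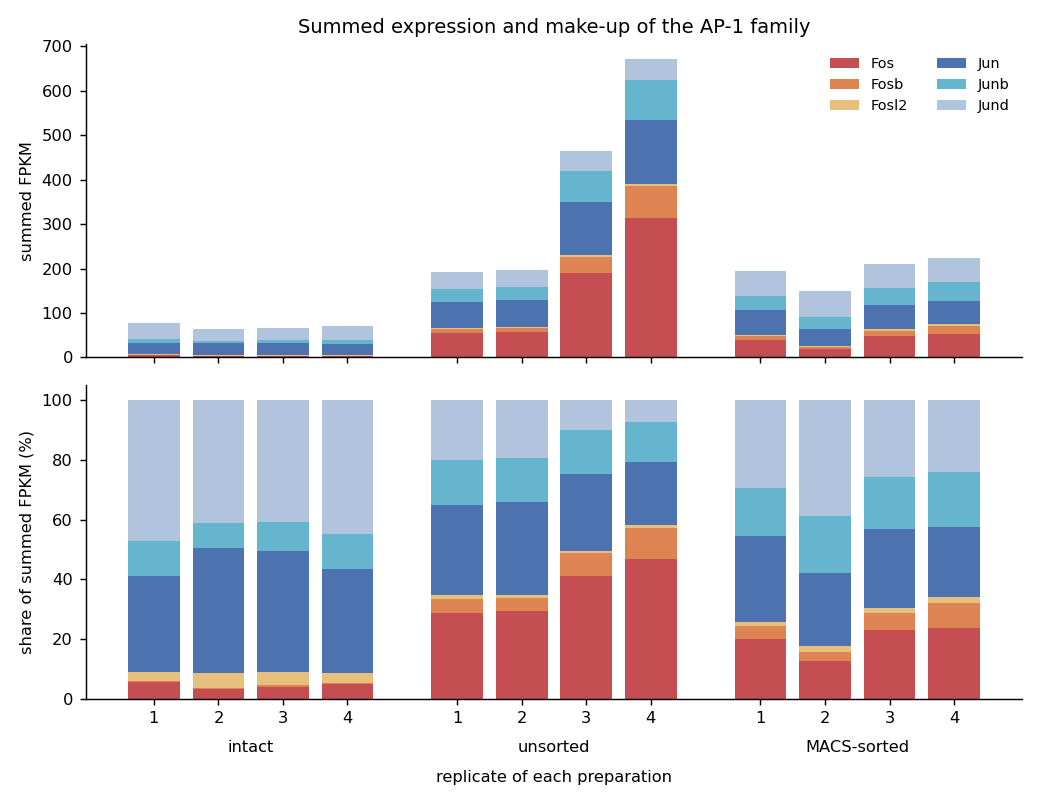
Summed FPKM (upper panel) and share of the sum in percent (lower panel) of the 6 detected AP-1 genes in each of the 12 samples, with 4 replicates per preparation on the x axis. The Fos branch, in warm colours, is 8.60% to 9.10% of the sum in intact samples and reaches 58.0% in unsorted replicate 4, where the sum is 672 FPKM.

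Other immediate early genes, a list of 17, were set beside the family. Of 14 tested in unsorted against intact DRG, 7 were called higher, against 4.29% of all genes, and none lower, also at an unadjusted p under 0.05, with a median log2-fold change of 1.26 against 0.01 for all genes tested. Egr1, a zinc finger factor, was at 23.0, 23.3, 81.0 and 127.6 FPKM in unsorted and at 3.87 to 6.22 in intact samples, a log2-fold change of 3.35 (SE 0.53, limma adjusted p = 0.00477). Ier2 (log2-fold change 2.47), the antiproliferative gene Btg2 (2.30) and Dusp1 (1.49), which encodes a phosphatase of MAP kinases, followed. The orphan nuclear receptor gene Nr4a1 was at 16.7, 15.9, 40.2 and 60.1 FPKM in unsorted and 10.9 to 12.03 in intact samples, with a log2-fold change of 1.29 (SE 0.39, limma adjusted p = 0.0436). In each of these 5 genes, as in Fos, unsorted replicates 3 and 4 lay above replicates 1 and 2.

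After sorting, the list parted from the AP-1 genes in some members. Of 14 tested in MACS-sorted against unsorted DRG, 4 were called lower (Egr2, Nr4a1, Egr1 and Klf6), against 12.5% of all genes, and 2 higher (Ier3 and Myc), against 8.15%. In MACS-sorted replicates 1 to 4, Nr4a1 stood at 2.15, 1.23, 6.93 and 11.8 FPKM, with a log2-fold change of -2.84 from unsorted DRG (SE 0.69, limma adjusted p = 0.00762). In replicates 1 to 3 it was below every intact sample, whereas Fos in the same samples was above every intact one. Against intact DRG its log2-fold change was -1.55 (SE 0.58, limma adjusted p = 0.0670). Egr2, which is also a regulator of myelination in Schwann cells, was at 0.156, 0.0225, 1.07 and 3.20 FPKM, called lower than both other preparations. Of the Schwann cell markers, 6 of 7 were called lower than in unsorted DRG as well. The part of Schwann cells in the Egr2 difference was not tested. In MACS-sorted against intact DRG, 6 of 12 were called higher, against 7.54% of all genes, led by Btg2 (1.88), Ier2 (1.62), Egr1 (1.57) and Dusp1 (1.25), and Egr2 was the 1 called lower.

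**Figure D4:**
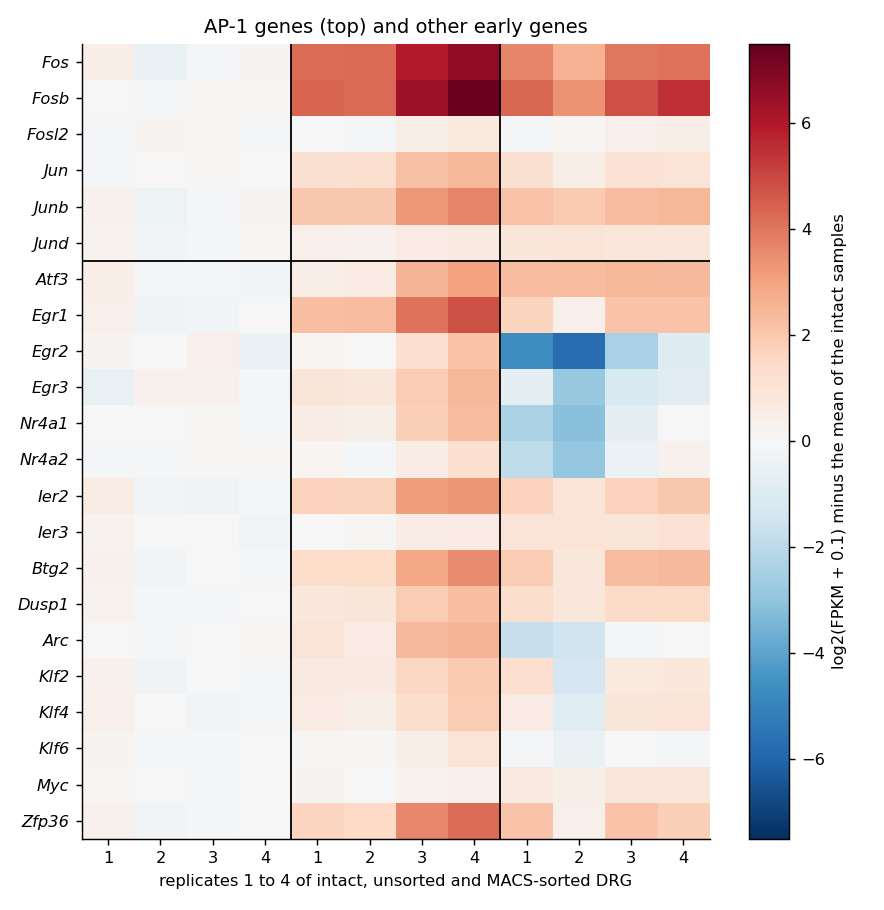
Log2(FPKM + 0.1) minus the mean of the intact samples (colour scale) for the 6 detected AP-1 genes (above the line), and for Atf3, the 14 other early genes tested and Zfp36 (below it), in replicates 1 to 4 of intact, unsorted and MACS-sorted DRG (columns). Unsorted replicates 3 and 4 are the reddest columns, and Egr2, Egr3 and Nr4a1 are blue in MACS-sorted replicates 1 to 3, where Fos and Fosb are red.

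Genes for proteins that can pair with Fos and Jun, or are related to them, made up the next list. Of 15 other bZIP genes tested in unsorted against intact DRG, none was called, while 3 passed by adjusted p alone, against 22.5% of all genes, and 5 had an unadjusted p under 0.05. The median log2-fold change was -0.02. Atf3, an injury-induced factor that dimerises with Jun, was at 4.22, 4.58, 17.4 and 24.4 FPKM in unsorted and at 2.47 to 4.09 in intact samples. The groups did not overlap, but the log2-fold change of 1.68 (SE 0.55) had an adjusted p of 0.0555 from limma. It was at 14.9, 15.3, 16.8 and 16.3 FPKM in MACS-sorted samples, called higher than in intact DRG (log2-fold change 2.40, SE 0.16, limma adjusted p = 8.7e-06). Ddit3, a stress-induced member, was called higher in MACS-sorted DRG than in both other preparations (1.02 and 0.60). Mafk, a small Maf protein, was called too (0.65 against unsorted and 0.50 against intact), and Maf was lower (-4.23 and -3.97). Relative to unsorted DRG these were 2 higher and 1 lower of 13 tested, where 8.15% and 12.5% of all genes were called. Relative to intact DRG, with Atf3, they were 3 higher and 1 lower of 12 tested, where 7.54% and 10.7% were called.

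Upstream and downstream genes were examined as lists. None of 26 MAP kinase genes, the enzymes that phosphorylate Jun and the factors on the Fos promoter, was called in unsorted against intact DRG, with 6 by adjusted p alone, a share near the 22.5% of all genes, and 11 at an unadjusted p under 0.05. In MACS-sorted against unsorted DRG, 1 of 26 was called higher, Map2k3 (0.52), against 8.15% of all genes. The scaffold gene Mapk8ip1 (-0.53) was the 1 called lower, against 12.5%. Compared with intact DRG, 1 of 26 was called higher, Rps6ka2 (0.61), against 7.54% of all genes. The largest log2-fold changes of the list were uncalled and came from single zeros, as Mapk9 was listed at 0 in intact replicate 1 and Mapk8ip3 in MACS-sorted replicate 1. Among 16 genes for factors that act on the Fos and Jun promoters, such as Srf and Creb1, none was called in unsorted against intact DRG (3 by adjusted p alone, against the same 22.5%, and 4 at an unadjusted p under 0.05). MACS-sorted samples had higher Stat3 (0.68), Mef2a (0.59) and Mef2d (0.52) than intact DRG, and lower Mef2c than intact (-0.55) and unsorted DRG (-0.63). Relative to intact DRG these were 3 higher and 1 lower of 16, where 7.54% and 10.7% of all genes were called. Relative to unsorted DRG, Mef2c was the 1 called of 16.

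Zfp36 encodes a protein that destabilises AU-rich mRNAs including that of Fos. Among 10 genes for turnover of AP-1 mRNA and protein, it was the 1 called in unsorted against intact DRG, as higher, against 4.29% of all genes. It was at 15.9, 14.4, 62.0 and 95.2 FPKM against 4.36 to 6.39, a log2-fold change of 2.72 (SE 0.57, limma adjusted p = 0.0128), and is itself an immediate early gene. In MACS-sorted DRG it was 22.8, 6.68, 22.8 and 18.2 FPKM, called higher than in intact DRG (1.61), whereas Zfp36l2 and Zfp36l1 were lower than in unsorted DRG (-1.95 and -1.88) and than in intact DRG (-1.74 and -1.48). Of all genes, 7.54% were called higher than in intact DRG, and 12.5% and 10.7% lower than in unsorted and intact DRG. Of 18 genes known as AP-1 targets, 10 were tested in unsorted against intact DRG and none was called. By adjusted p alone 1 passed, against 22.5% of all genes, and 2, both lower, had an unadjusted p under 0.05. Their median log2-fold change was -0.07. In MACS-sorted DRG, 4 targets were called higher than in both other preparations. They were Plaur, the urokinase receptor (1.49 against unsorted), Hmox1, heme oxygenase (1.04), the adhesion receptor Cd44 (0.94) and Plau, urokinase (0.61). These were 4 of 10 tested against unsorted and 4 of 11 against intact DRG, against 8.15% and 7.54% of all genes. Ccnd1 (-3.98), which encodes cyclin D1, and Vim (-2.76), which encodes an intermediate filament of non-neuronal cells, were lower. They were 2 of the 10 tested against unsorted DRG, against 12.5% of all genes.

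**Figure D5:**
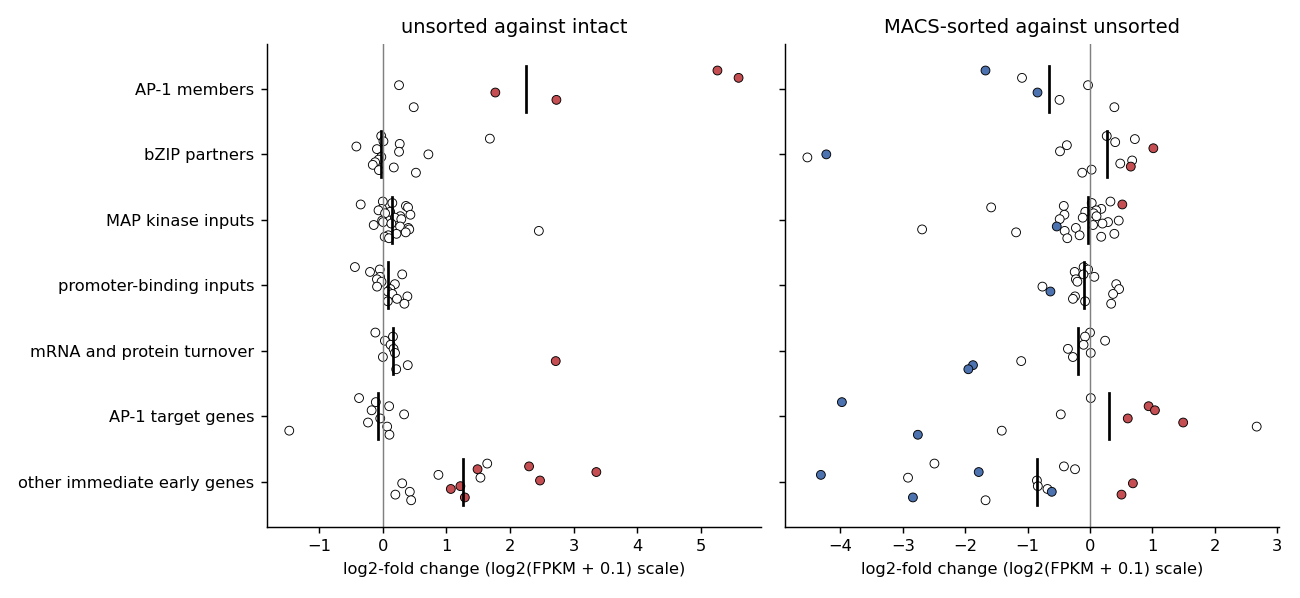
Log2-fold change (x axis) of each tested gene of the AP-1 family and of 6 related lists (rows) in unsorted against intact DRG (left) and MACS-sorted against unsorted DRG (right); red and blue points were called higher and lower, white points were not called, and black lines are medians. On the left the called genes are in the AP-1 and other immediate early gene rows, apart from Zfp36 at 2.72, and the median of the early genes is 1.26.

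The genes whose profile over the 12 samples was closest to each member were found from the root mean square difference of centred log2(FPKM + 0.1) among 12283 genes. Fos and Fosb were each other's nearest neighbour, at 0.476. Next came Egr1 (0.930) and Kdm5d (0.938) for Fos, and Kdm5d (0.928) and Uty (0.974) for Fosb. Kdm5d and Uty are Y-linked and follow the difference between intact and other samples given above, with values of at most 0.0105 FPKM in intact DRG. Jun was near to Dusp1 (0.286) and to 1 of the 2 listed loci of Syne1 (0.312). Junb was nearest to Ier2 (0.317), Socs3 (0.356), a feedback inhibitor of cytokine signalling, and Btg2 (0.366). Jund lay close to Gm13889 (0.137) and Cdk5r2 (0.157), and Fosl2 to Plk2 (0.190), Zfp280b (0.190) and Tiparp (0.195). The short distances of Jund and Fosl2 go with profiles that vary little. Several neighbours changed with the setting. With a pseudocount of 1, Egr1 and Junb replaced Kdm5d and Uty for Fosb, Ddx3y replaced Kdm5d for Fos, and Syne1 was no longer among the nearest 3 of Jun, in this setting and under quantile normalization. Under quantile normalization Plk3 and Lrrc3b came nearest to Jund, and Dnajb1 to Fosl2, without Cdk5r2, Plk2 or Tiparp among the nearest 3. The pair of Fos and Fosb and the 3 neighbours of Junb were the same in both settings.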

How the data were processed

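Per the labels, the authors aligned reads to mm10 with TopHat2, merged lanes with SAMtools and estimated expression with Cufflinks 2.1.1. The deposited file holds FPKM for each gene in each sample, and no counts were used. All 12 samples entered. With 150-base fragments assumed, the steps between low values give 13350000 to 19150000 fragments per sample, and n = 4 limits the precision.

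Groups were compared with limma 3.58.1 (R 4.3.3, intensity trend, two-sided) on log2(FPKM + 0.1), over genes averaging 1 FPKM or more in the 8 samples compared. CuffDiff, which the study used, needs aligned reads. The procedure was tested on simulated data. Samples held 1, 2 or 8 mice each, per the labels, and p-values measure the spread between these samples. Deviations of same-numbered samples correlated between -0.143 and 0.067, so numbers were not taken as pairs.

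All members are named, with up to 4 called genes per direction, list and comparison, the 3 nearest profiles, and Egr1 and Nr4a1. Nr4a1 against intact, Atf3 in unsorted samples, Mapk9, Mapk8ip3, Egr3 in the heat map and the genes of the sample checks were added after their values were seen. A few nearest profiles and checks are left out of the text. Members, lists and motifs were chosen with earlier results of these data known.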

Additional observations from a re-analysis of the deposited data

How the results depend on the processing

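Fos, Fosb, Junb and Jun stayed called in unsorted against intact DRG, and these and Jund in MACS-sorted against intact DRG, under every scaling, pseudocount, filter and left-out sample run. Requiring a log2 ratio beyond 1 left 3 members called in MACS-sorted against intact DRG. In MACS-sorted against unsorted DRG, 2 members were called, 1 with no filter, with median-ratio size factors or with a log2 ratio beyond 1, and 0 with limma without trend, where Fos and Jun had adjusted p of 0.0538 and 0.0602. Leaving out 1 sample gave 0 to 2 members there, and 4 to 5 in unsorted against intact DRG, where Jund had adjusted p between 0.00313 and 0.0698. The log2-fold change of Fosl2 in MACS-sorted against unsorted DRG turned positive with median-ratio size factors (0.0296), quantile normalization (0.298) and red blood cell genes removed (0.0059), and ranged from -0.1637 to 0.1303 with 1 sample left out, above 0 without MACS-sorted replicate 1 or unsorted replicate 3 or 4. Quantile normalization also raised it to 0.68 in MACS-sorted against intact DRG, past the threshold. Over all genes, 873 were called in unsorted against intact DRG (2793 by adjusted p alone, 165 with a log2 ratio beyond 1, 579 to 885 with 1 sample left out, lowest without unsorted replicate 3), 2486 in MACS-sorted against unsorted DRG (5592 and 1139) and 2235 in MACS-sorted against intact DRG (4252 and 1011). The replicate numbers do not pair the samples, and in 3 of 12 comparisons of a sample with another group the best correlation was with its own number. A replicate block gave 899, 2507 and 2229 calls over all genes and 4, 3 and 5 members, with Fosb added in MACS-sorted against unsorted DRG (adjusted p = 0.0149 from limma). The cause of these shifts was not tested.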
